A study of Mus musculus with 8 samples.

Results

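The 36 genes described here encode the glucose transporters, the enzymes of glycolysis, the lactate and pyruvate carriers, and the kinases and first subunits that govern entry of pyruvate into mitochondria. They were taken by name from a list ordered by pathway step, and all 36 were found among the 35087 named rows of the deposited tables. The libraries are of polyadenylated RNA from granulosa cells, the somatic cells that enclose the oocyte, cut by laser from cryosections of mouse ovaries. All mice carried Hif1a alleles flanked by loxP sites and received tamoxifen at 100 mg/kg daily for 5 days from 3 weeks of age, with dissection 7 days after dosing ended. The 2 cKO libraries are from mice that also carried Foxl2-CreERT2, a tamoxifen-dependent Cre driven from Foxl2, a gene of the granulosa lineage, so cells that do not express Foxl2 keep their Hif1a alleles. The 6 WT libraries are from mice with the floxed alleles and no Cre, and are therefore treated controls, not untreated animals. The genotype label of the cKO libraries reads Hif1a knockdown, and the library names of all 8 samples begin with cKO, so the WT label rests on the titles and the genotype field. Libraries are called cKO1, cKO2 and WT1 to WT6 by their replicate numbers. No library is tied to an animal or a follicle stage, so p-values measure the spread between these libraries, and would be too small if several came from 1 animal.

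Glycolysis converts glucose to pyruvate in the cytosol and yields ATP without oxygen, and lactate dehydrogenase turns pyruvate into lactate while regenerating the NAD that the pathway needs. Granulosa cells are known for this activity in the ovary, since the oocyte uses glucose poorly and takes up pyruvate supplied by the cells around it. HIF1, the transcription factor whose oxygen-regulated subunit is encoded by Hif1a, is known to induce most genes of the pathway in cells short of oxygen, among them Slc2a1, Hk2, Pgk1, Ldha, Slc16a3 and Pdk1.

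HIF1 binds DNA at short sites whose core is ACGTG or GCGTG. RefSeq promoters on GRCm38.p6, from 250 bases before to 50 after a start site, were found for 33 of the 36 genes, with 52 windows in all, and not for Slc2a3, Slc2a4 and Slc16a7. Either core, on either strand, was present in 39 of the 52 windows (75%), against 14380 of 32851 windows of this length over all genes (43.8%). By gene, 29 of the 33 (87.9%) had a match in at least 1 window, against 12628 of 27025 genes (46.7%). The members have more windows per gene (52 for 33, against 32851 for 27025), which raises their share by gene. Some windows of the same gene overlap and were counted separately, as for Eno1, Aldoa and Pfkm. Base composition was not matched, so the shares are descriptions only. The first listed windows of the 4 genes below are shown because they differ in the direction of their values and in the number of matches, with both cores in capitals, 5′ to 3′ along the gene. A match is a string of letters and not a measured binding site.
Ldha, chr7:46845554-46845853, plus strand: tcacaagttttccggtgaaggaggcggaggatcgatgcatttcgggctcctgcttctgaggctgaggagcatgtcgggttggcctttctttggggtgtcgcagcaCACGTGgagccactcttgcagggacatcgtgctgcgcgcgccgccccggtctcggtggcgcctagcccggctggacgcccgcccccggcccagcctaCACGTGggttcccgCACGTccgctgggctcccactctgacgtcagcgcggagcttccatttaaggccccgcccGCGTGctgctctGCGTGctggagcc
Pgk1, chrX:106186850-106187149, plus strand: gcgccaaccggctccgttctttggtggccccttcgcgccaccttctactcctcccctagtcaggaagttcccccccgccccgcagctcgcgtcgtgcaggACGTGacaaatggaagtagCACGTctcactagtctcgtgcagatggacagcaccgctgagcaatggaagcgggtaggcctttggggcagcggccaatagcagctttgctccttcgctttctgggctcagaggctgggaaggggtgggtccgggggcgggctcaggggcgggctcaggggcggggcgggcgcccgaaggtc
Pdk1, chr2:71872974-71873273, plus strand: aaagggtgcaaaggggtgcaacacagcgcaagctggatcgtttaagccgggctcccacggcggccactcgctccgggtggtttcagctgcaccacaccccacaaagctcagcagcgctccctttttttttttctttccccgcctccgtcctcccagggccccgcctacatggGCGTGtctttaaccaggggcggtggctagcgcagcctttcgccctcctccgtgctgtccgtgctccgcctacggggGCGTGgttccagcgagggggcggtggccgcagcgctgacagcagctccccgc
Tpi1, chr6:124814109-124814408, minus strand: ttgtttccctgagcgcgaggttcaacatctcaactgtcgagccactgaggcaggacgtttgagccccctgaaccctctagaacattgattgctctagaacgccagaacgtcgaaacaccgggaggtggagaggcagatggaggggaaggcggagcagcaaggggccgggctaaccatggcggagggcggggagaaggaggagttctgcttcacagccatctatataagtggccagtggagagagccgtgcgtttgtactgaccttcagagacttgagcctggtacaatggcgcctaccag
The Ldha window held 7 matches, the nearest upstream one beginning 34 bases before the start site, and 4 of them lay in 2 copies of CACGTG, where each strand counts once. CACGTG, which other transcription factors also bind, was present in 6 of the 52 windows (11.5%) and in 7.15% of all windows. The Pgk1 window held 2 matches, the Pdk1 window held 2, beginning 78 and 2 bases before the start site, and the Tpi1 window held none.

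Depth lay between 651426 and 4719293 reads on named genes, with the lowest in cKO2. CPM are reads of a gene scaled to the size of the library, and levels below are given after TMM scaling of that size. In cKO2 the limit for a count of 0, 3 reads, corresponds to 4.10 CPM after TMM scaling. Before TMM scaling it is 4.61 CPM, against 0.636 to 1.88 CPM in the other 7 libraries. Such limits cover counting error only. Hif1a itself (chromosome 12, 73901375 to 73947530, plus strand) measured 22.3 and 13.7 CPM in the cKO pair and from 35.5 to 106.2 CPM in WT, with no overlap, and a log2 fold change of -1.84 ± 0.58 (SE), with adjusted p = 0.369 by edgeR and 0.0625 by DESeq2. That value was -0.97 among the libraries numbered 1 and 2, and -0.32 with a term for the number of genes detected, which itself separates the groups. The libraries numbered 1 and 2 were chosen because earlier results of these data set them apart. Values among them, here and below, are therefore descriptions and not a test of the main fit. All 13 granulosa markers had reads in both groups, and their summed level was 5574 and 1956 CPM in cKO1 and cKO2, 3766 CPM in WT1, 9230 CPM in WT2, and 20869 to 64600 CPM across WT3 to WT6. Mitochondrial genome transcripts took 8.87% and 10.5% of reads in cKO and from 1.42% to 3.65% in WT, and the number of genes with at least 5 reads was at most 12847 in cKO and at least 13597 in WT. Markers of other cells summed, in cKO and WT, to 46.4 to 90.8 and 8.60 to 2080 CPM for the 13 of oocytes (Dppa3 and Nobox at 0 in cKO), with 2080 in WT6. The 7 stroma markers summed to 1341 and 372 CPM in cKO, 1002 CPM in WT1 and 16.6 to 809 CPM in the other 5 WT libraries. The 7 endothelial markers summed to 329 and 258 CPM in cKO, 422 CPM in WT1 and 87.1 to 228 CPM in the other 5. Sums for theca were 132 to 366 CPM in cKO and 141 to 904 CPM in WT, and for leukocytes 23.2 to 33.5 and 2.66 to 28.02 CPM. Their part in the results below was not tested. In such material fewer granulosa cells and less RNA per cell cannot be told apart.

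The 36 genes together took 0.355% and 0.181% of reads in cKO1 and cKO2. They took 0.314% in WT1, 0.598% in WT2, and from 0.958% to 1.18% in WT3 to WT6. Summed TPM, the deposited unit that corrects for transcript length, gave 3418 and 1988 in cKO, 3369 and 5241 in WT1 and WT2, and from 7940 to 11714 in WT3 to WT6. WT1 thus lay between both cKO libraries in total glycolytic transcript, and the other 5 WT libraries lay above them.

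Of the 36 genes, 33 had enough reads to be tested and Slc2a4, Pgam2 and Eno2 did not. In edgeR's quasi-likelihood test 0 of the 33 had an adjusted p under 0.05, as for all 15102 genes tested (0.00% called), and the smallest adjusted p among the 33 was 0.369. At an unadjusted p under 0.05, 13 of the 33 were lower in cKO, where 8.89% of all genes were, and 1 was higher, where 3.40% of all genes were. In direction alone, 24 of the 33 were lower (72.7%), against 52.7% of all genes. The median log2 fold change of the 33 was -0.83, against -0.08 over all genes. limma-voom and limma on log2(TPM + 1) also called 0 of the 33. Without a filter on low counts edgeR called 8 lower, where it called 405 of 25322 genes lower and 73 higher. DESeq2 gave an adjusted p to 22 of the 33 and called 8 lower and 0 higher, where it called 3.08% of 7757 genes lower and 0.387% higher. By CPM the groups did not overlap in 3 genes that were lower, Ldha, Pdk2 and Pdk3, and in 1 that was higher, Pdk1. These are 3 and 1 of 33, beside 6.41% and 6.02% of all genes, so the share without overlap was near that of the background. Which genes these are depends on the unit. By deposited TPM the groups overlapped in each of them. The genes without overlap by TPM were 4 that were lower, Aldoa, Pkm, Ldhb and Slc16a1, and 1 that was higher, Slc2a8. Their margins were narrow. In cKO1 the 4 had 429.9, 53.2, 186.2 and 1.51 TPM, against 449.9, 53.9, 190.5 and 1.64 in WT1. Slc2a8 had 14.0 TPM in cKO1 against 13.1 in WT3. All genes stood at 7.07% and 5.37% by TPM. Along the pathway, the 13 lower genes began at aldolase and ran to lactate export and pyruvate dehydrogenase. None of them encodes a glucose transporter, a hexokinase or a phosphofructokinase. That start rests on the p threshold and not on direction. Gpi1 and the 3 phosphofructokinase genes, earlier in the pathway, were also lower, with log2 fold changes from -0.85 to -0.40.

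**Figure D1:**
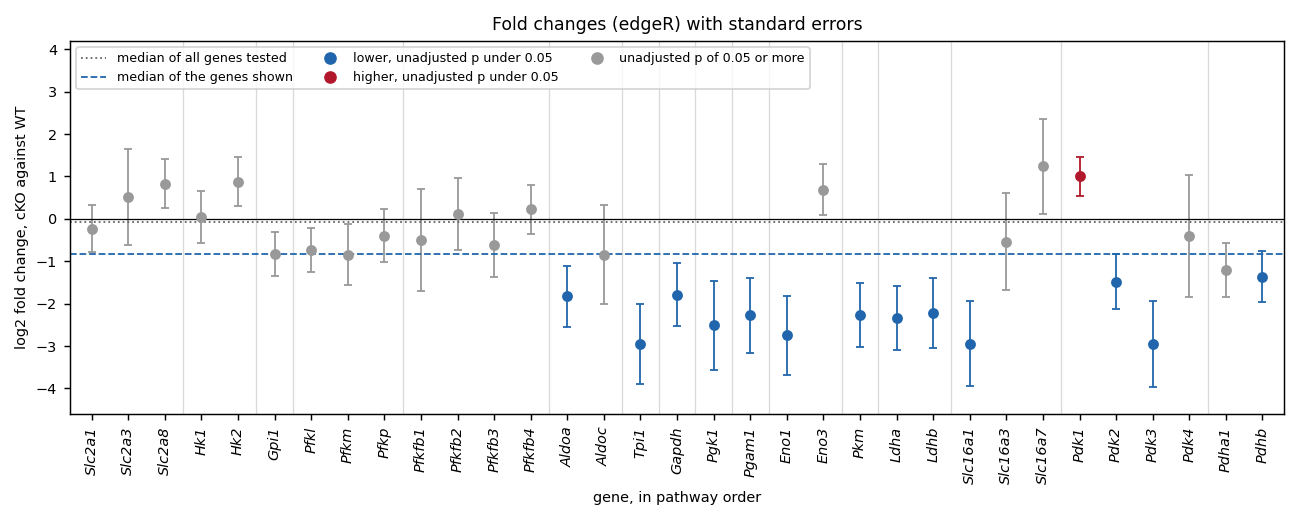
Log2 fold change of cKO against WT from edgeR for the 33 tested genes in pathway order, with standard errors as bars (2 cKO and 6 WT libraries). The 13 genes in blue lie between -1.37 and -2.96 and begin at Aldoa, while the glucose transporters and hexokinases lie between -0.23 and 0.88. Gpi1, Pfkl, Pfkm and Pfkp, between these steps, lie from -0.85 to -0.40, and no gene passed after adjustment.

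At the entry of glucose, no transporter or hexokinase had an unadjusted p under 0.05 in edgeR's quasi-likelihood test. Slc2a1, the basal glucose transporter GLUT1, had 28.4 and 23.2 CPM in cKO1 and cKO2 and from 15.9 to 52.8 CPM in WT, with a median of 27.4, for a log2 fold change of -0.23 ± 0.55 (SE), with adjusted p = 0.887 by edgeR. It was the most abundant transporter in WT, with a median TPM of 11.99 against 9.80 for Slc2a8. Slc2a8 (chromosome 2, 32972990 to 32982083, minus strand), an intracellular glucose transporter, measured 36.0 and 30.1 CPM in the cKO pair and ranged over 7.93 to 30.9 CPM across WT, with a median of 20.2. Its means were 33.04 ± 4.23 CPM (SD, n = 2) for cKO against 18.6 ± 9.02 CPM (SD, n = 6) for WT, which gave a log2 fold change of 0.83 ± 0.58 (SE), with adjusted p = 0.561 by edgeR. For Slc2a8, cKO1 stood above every WT library and cKO2 just below the highest. Slc2a3, the neuronal transporter GLUT3, measured 2.03 and 12.3 CPM in the cKO pair and ranged over 1.75 to 14.3 CPM across WT, and the muscle and fat transporter Slc2a4 had 0 reads in cKO and 22 reads in WT. Reads of Slc2a3 were divided with other rows in 7 of 8 libraries, so its level is uncertain.

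The hexokinases, which trap glucose as glucose 6-phosphate, were present at low levels. Hk2 (chromosome 6, 82725025 to 82774454, minus strand), the inducible and insulin-responsive form, measured 72.1 and 72.4 CPM in the cKO pair. It measured 48.4 and 94.03 CPM in WT1 and WT2 and 16.6 to 26.1 CPM across WT3 to WT6. The means were 72.2 ± 0.24 CPM (SD, n = 2) for cKO against 39.4 ± 28.8 CPM (SD, n = 6) for WT, which gave a log2 fold change of 0.88 ± 0.57 (SE), with adjusted p = 0.538 by edgeR. The 4 libraries with the least summed glycolytic transcript, both cKO libraries with WT1 and WT2, were the 4 with the most Hk2 by CPM. This did not hold by TPM, where WT3, WT4 and WT5, with 18.1, 11.4 and 21.3, lay above cKO1 and above WT1, with 8.85. The log2 fold change of Hk2 was 1.35 without WT2 and 0.08 among the libraries numbered 1 and 2 of both groups. Hk1, the form of most tissues, measured 16.7 and 19.1 CPM in the cKO pair and ranged over 6.33 to 24.5 CPM across WT. Gpi1 (chromosome 7, 34201330 to 34230336, minus strand), which isomerizes glucose 6-phosphate to fructose 6-phosphate, measured 241.6 and 143.4 CPM in the cKO pair and ranged over 159.9 to 509 CPM across WT, with a median of 339.9. The log2 fold change here was -0.83 ± 0.52 (SE), with adjusted p = 0.518 by edgeR, or -1.26 without cKO1 and -0.55 without cKO2.

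Phosphofructokinase commits sugar to glycolysis, and its liver form Pfkl (chromosome 10, 77986947 to 78010083, minus strand) was the most abundant here by mean TPM. It did not lead in every library, since by TPM Pfkm exceeded it in WT4 and WT5 and Pfkp in WT6. Pfkl measured 79.7 and 57.4 CPM in the cKO pair and ranged over 63.7 to 231 CPM across WT (median 93.3), for a log2 fold change of -0.73 ± 0.52 (SE), with adjusted p = 0.564 by edgeR. The highest value was in WT3, without which the log2 fold change was -0.33. The muscle form Pfkm had 7.61 and 49.2 CPM in cKO1 and cKO2, and from 15.9 to 88.2 CPM in WT, so the cKO libraries differed from each other more than the group means did. The platelet form Pfkp measured 29.4 and 24.6 CPM in the cKO pair and ranged over 13.4 to 75.7 CPM across WT. The bifunctional enzymes that set the level of fructose 2,6-bisphosphate, an activator of phosphofructokinase, were also low. Pfkfb4 (chromosome 9, 108991778 to 109032228, plus strand), the most abundant of these, measured 35.5 and 20.5 CPM in the cKO pair and ranged over 13.4 to 44.5 CPM across WT, for a log2 fold change of 0.23 ± 0.58 (SE), with adjusted p = 0.894 by edgeR, which was -0.24 without cKO1. Pfkfb3, the form known to be induced by HIF1 and by proliferation, measured 13.2 and 9.56 CPM in the cKO pair and ranged over 6.04 to 28.8 CPM across WT. Pfkfb1 and Pfkfb2 stayed at or under 17.9 CPM in every library. None of these 7 genes had an unadjusted p under 0.05.

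**Figure D2:**
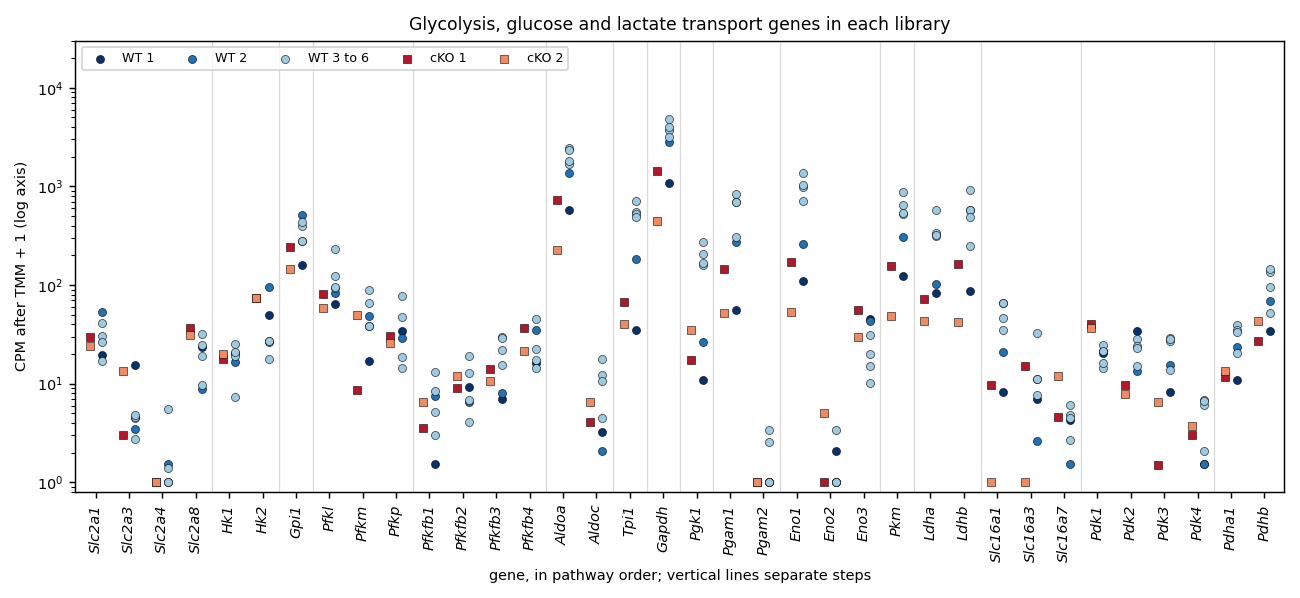
CPM after TMM, plus 1, on a log axis for all 36 genes in each of the 8 libraries, in pathway order (squares are cKO, circles are WT). For Aldoa, Tpi1, Gapdh, Pgk1, Pgam1, Eno1, Pkm, Ldha and Ldhb, WT3 to WT6 (light blue) lie above both cKO libraries, and WT1 (dark blue) lies inside or below the cKO range in all of these but Ldha.

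From aldolase to pyruvate kinase, the leading gene of each step was lower in cKO at an unadjusted p under 0.05. Per length, these 7 genes with Ldhb, Gpi1 and Ldha were the 10 most abundant of the 36 in WT. The median TPM over WT libraries was 3796 for Gapdh, 1209 for Aldoa, 400.4 for Eno1, 300.04 for Tpi1, 282 for Pgam1, 225 for Pkm and 92.2 for Pgk1, against 14.8 for Hk2 and 11.99 for Slc2a1. Aldoa (chromosome 7, 126795234 to 126800751, minus strand), the aldolase that splits fructose 1,6-bisphosphate, measured 726 and 228 CPM in the cKO pair and ranged over 574 to 2430 CPM across WT, with a median of 1742. For this gene the log2 fold change was -1.83 ± 0.71 (SE), with adjusted p = 0.375 by edgeR and 0.0368 by DESeq2, or -0.98 among the libraries numbered 1 and 2. WT1, with 574 CPM, lay between the cKO libraries and the other 5 WT libraries lay above both.

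Tpi1 (chromosome 6, 124810586 to 124814296, minus strand), which interconverts the triose phosphates, is the gene whose promoter window above holds no match. It measured 66.5 and 39.6 CPM in the cKO pair, 34.1 and 184 CPM in WT1 and WT2, and 486 to 704 CPM across WT3 to WT6. Between groups the log2 fold change of -2.95 ± 0.94 (SE), with adjusted p = 0.369 by edgeR and 0.0155 by DESeq2 became -0.95 among the libraries numbered 1 and 2. Gapdh (chromosome 6, 125161715 to 125166467, minus strand), the dehydrogenase often used as a reference gene, measured 1443 and 441 CPM in the cKO pair and ranged over 1086 to 4795 CPM across WT, with a median of 3435. Its log2 fold change was -1.79 ± 0.75 (SE), with adjusted p = 0.380 by edgeR and 0.0386 by DESeq2. The 4.42-fold span of Gapdh among WT libraries alone was wider than the 3.46-fold difference between group means. Reads of Gapdh were divided with other rows in all 8 libraries. The gene spans of Aldoa, Tpi1 and Gapdh overlap Fam57b, Spsb2 and Iffo1 on the opposite strand, and other members, such as Pfkm and Pfkp, also have such partners. Overlap of exons was not examined. Without strand, reads from any shared sequence cannot be told apart.

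Pgk1 (chromosome X, 106187100 to 106203699, plus strand), the kinase that makes the first ATP of the pathway, measured 16.2 and 34.1 CPM in the cKO pair. It had 9.89 and 25.7 CPM in WT1 and WT2 and 159.5 to 274.7 CPM across WT3 to WT6, so the cKO range enclosed WT2 and lay above WT1. The log2 fold change was -2.51 ± 1.04 (SE), with adjusted p = 0.380 by edgeR and 0.105 by DESeq2, and among the libraries numbered 1 and 2 it turned to 0.55. Pgam1 (chromosome 19, 41911923 to 41918660, plus strand), the mutase of the next step, measured 144 and 50.5 CPM in the cKO pair and ranged over 54.4 to 833 CPM across WT (median 498), for a log2 fold change of -2.28 ± 0.89 (SE), with adjusted p = 0.375 by edgeR and 0.0586 by DESeq2, or -0.67 among the libraries numbered 1 and 2. Its muscle counterpart Pgam2 had 0 reads in cKO and 17 in WT. Eno1 (chromosome 4, 150236721 to 150248879, plus strand), the widely expressed enolase, measured 168 and 51.9 CPM in the cKO pair, 107.7 and 257 CPM in WT1 and WT2, and 715 to 1362 CPM across WT3 to WT6. The log2 fold change here was -2.75 ± 0.94 (SE), with adjusted p = 0.369 by edgeR and 0.0209 by DESeq2, or -0.66 among the libraries numbered 1 and 2. Reads of Eno1 were divided with other rows in all 8 libraries.

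Pkm (chromosome 9, 59656368 to 59679375, plus strand), the pyruvate kinase of most tissues, measured 157 and 47.8 CPM in the cKO pair, 124 and 306 CPM in WT1 and WT2, and 523 to 877 CPM across WT3 to WT6. For this gene the log2 fold change was -2.28 ± 0.76 (SE), with adjusted p = 0.369 by edgeR and 0.0244 by DESeq2, or -1.01 among the libraries numbered 1 and 2. WT1 was the 1 WT library of Pkm inside the cKO range. Aldoc and Eno3 are the aldolase of brain and the enolase of muscle. Aldoc measured 3.045 and 5.46 CPM in the cKO pair and ranged over 1.09 to 16.8 CPM across WT. Eno3 measured 55.3 and 28.7 CPM in the cKO pair, 43.96 and 41.8 CPM in WT1 and WT2, and 9.19 to 30.4 CPM across WT3 to WT6, so WT1 and WT2 were the highest of the WT libraries for Eno3 and the lowest for Eno1. Eno2, the neuronal enolase, had 3 reads in cKO and 13 in WT.

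Both lactate dehydrogenase genes were lower in cKO. Ldha (chromosome 7, 46841475 to 46855627, plus strand), whose enzyme favours lactate formation, measured 71.6 and 42.3 CPM in the cKO pair, 81.3 and 102.5 CPM in WT1 and WT2, and 315 to 575 CPM across WT3 to WT6. By CPM the groups did not overlap, but 9.77 CPM separated cKO1 from WT1. By TPM WT2, with 48.9, lay below both cKO libraries, with 61.6 and 77.1. The means were 56.9 ± 20.7 CPM (SD, n = 2) for cKO against 289 ± 181 CPM (SD, n = 6) for WT, which gave a log2 fold change of -2.33 ± 0.75 (SE), with adjusted p = 0.369 by edgeR and 0.0294 by DESeq2, or -0.64 among the libraries numbered 1 and 2. Ldhb (chromosome 6, 142490249 to 142507957, minus strand), whose enzyme favours pyruvate formation, measured 163 and 40.98 CPM in the cKO pair, 86.8 and 573 CPM in WT1 and WT2, and 248 to 909 CPM across WT3 to WT6. Between groups the log2 fold change was -2.22 ± 0.83 (SE), with adjusted p = 0.372 by edgeR and 0.0471 by DESeq2, and it was -1.61 among the libraries numbered 1 and 2. For Aldoa, Gapdh and Ldhb the log2 fold changes were -2.90, -2.88 and -3.55 without cKO1, and -1.28, -1.23 and -1.61 without cKO2.

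Lactate and pyruvate leave or enter cells through monocarboxylate transporters. Slc16a1 (chromosome 3, 104638668 to 104658462, plus strand), which encodes the widespread carrier MCT1, measured 8.63 and 0 CPM in the cKO pair, from 17 reads and 0 reads. It had 7.14 and 19.955 CPM in WT1 and WT2 and 33.9 to 65.3 CPM across WT3 to WT6. Its log2 fold change was -2.95 ± 1.002 (SE), with adjusted p = 0.369 by edgeR and 0.0463 by DESeq2. The value was -2.26 without cKO2 and -1.46 among the libraries numbered 1 and 2. Leaving out cKO1 removes all 17 reads. The fitted -9.95 then has no measured value behind it, the limit of 3 reads in cKO2 being 4.10 CPM. Slc16a3, the lactate exporter MCT4, measured 14.2 and 0 CPM in the cKO pair and ranged over 1.64 to 32.0 CPM across WT. Slc16a7, the high-affinity pyruvate carrier MCT2, measured 3.55 and 10.9 CPM in the cKO pair and ranged over 0.547 to 5.07 CPM across WT, with its reads divided with other rows in all 8 libraries. Neither Slc16a3 nor Slc16a7 had an unadjusted p under 0.05.

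**Figure D3:**
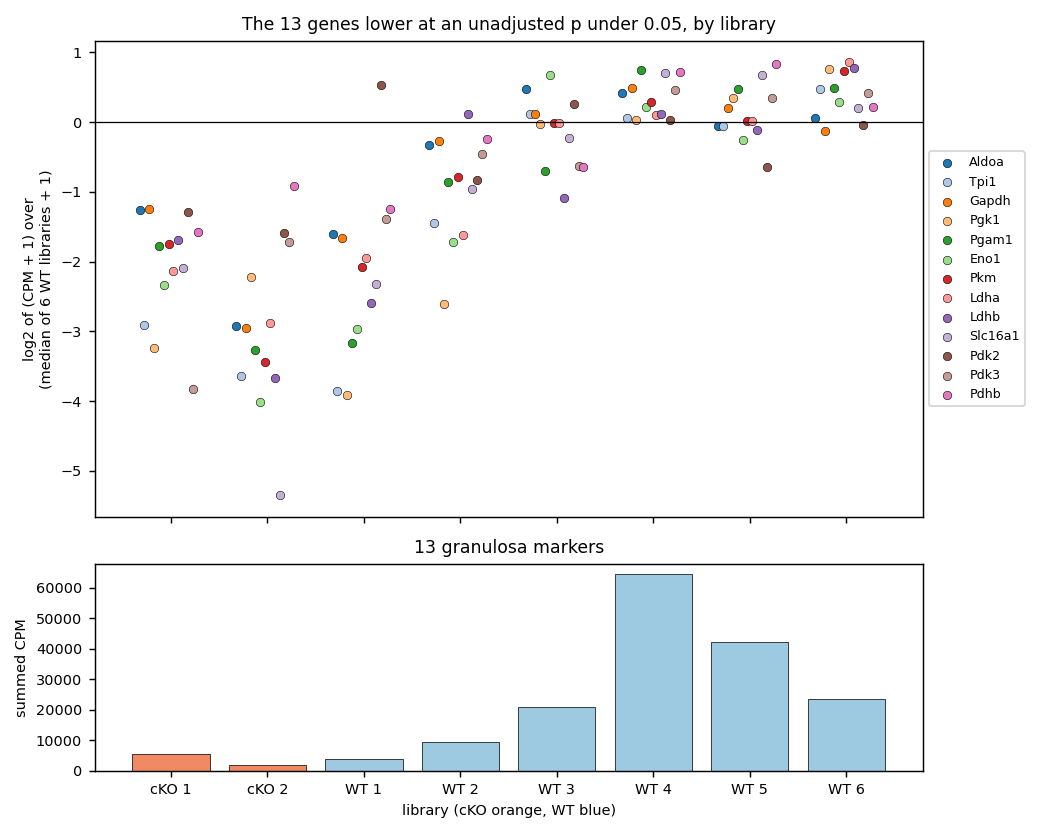
Top, the 13 genes lower at an unadjusted p under 0.05, each as log2 of its CPM plus 1 over that of the WT median, in each library; bottom, summed CPM of 13 granulosa markers. In WT1 all of these genes except Pdk2 lie well below 0, as in both cKO libraries, and WT3 to WT6 lie around 0 and have the highest marker sums.

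The pyruvate dehydrogenase kinases, which phosphorylate and switch off pyruvate dehydrogenase, differed in direction. Pdk1 (chromosome 2, 71873224 to 71903858, plus strand) measured 39.1 and 35.5 CPM in the cKO pair and 19.2, 20.2, 23.4, 13.3, 15.2 and 20.3 CPM in WT1 to WT6, so every cKO library lay above every WT library. The log2 fold change was 1.01 ± 0.46 (SE), with adjusted p = 0.405 by edgeR and 0.166 by DESeq2, and it was 0.96 among the libraries numbered 1 and 2. Pdk1 in WT1 and WT2 lay within the range of WT3 to WT6. By TPM the groups overlapped, as cKO2, with 8.99, lay below WT3 and WT4, with 17.0 and 12.3. Pdk2 (chromosome 11, 95026258 to 95041354, minus strand) measured 8.63 and 6.83 CPM in the cKO pair and 32.97, 12.3, 27.3, 23.2, 14.04 and 22.04 CPM in WT1 to WT6. The log2 fold change here was -1.48 ± 0.65 (SE), with adjusted p = 0.388 by edgeR, from 22 reads in cKO, and was -1.51 among the libraries numbered 1 and 2. Here WT1 was the highest of all libraries.

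Pdk3 (chromosome X, 93764607 to 93832201, minus strand) measured 0.507 and 5.46 CPM in the cKO pair, from 1 and 4 reads, and from 7.14 to 28.3 CPM in WT, with a median of 20.4. For this gene the log2 fold change of -2.96 ± 1.01 (SE), with adjusted p = 0.369 by edgeR was -1.83 without cKO1 and -5.22 without cKO2, so its size is uncertain. Among the libraries numbered 1 and 2 it was -1.92. Pdk4, the form known to respond to fasting, stayed at or under 5.80 CPM in every library. Of the E1 subunits of pyruvate dehydrogenase itself, Pdhb (chromosome 14, 8165996 to 8173025, minus strand) measured 26.4 and 42.3 CPM in the cKO pair and ranged over 33.5 to 144.7 CPM across WT, for a log2 fold change of -1.37 ± 0.60 (SE), with adjusted p = 0.386 by edgeR and 0.218 by DESeq2, or -0.51 among the libraries numbered 1 and 2. Pdha1 measured 10.7 and 12.3 CPM in the cKO pair and ranged over 9.89 to 38.0 CPM across WT, with an unadjusted p = 0.080. WT1 had 33.5 CPM of Pdhb, inside the cKO range.

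The 13 lower genes were then followed by library. They were chosen as lower in a fit on these same 8 libraries, so their positions are in part set by that choice. The counts over the 13 are descriptions only, and were not made over all genes. In all 13, WT3, WT4, WT5 and WT6 each lay above both cKO libraries. WT2 did so in 12, and WT1 in 3, lying at or below the higher cKO library in the other 10 and below both in Tpi1 and Pgk1. In 9 of the 13 genes, WT1 and WT2 both lay below every one of WT3 to WT6, and in 10 of the 13 cKO2 lay below cKO1. The spread within WT ran from 2.68-fold to 27.8-fold. Among the libraries numbered 1 and 2 alone, chosen because earlier results of these data set them apart, 19 of the 33 tested genes were lower in cKO. The median of the 33 was -0.14 on the log2 scale, and 0 had an unadjusted p under 0.05 by edgeR, beside 376 of all 15082 genes. Of the 13, which were chosen as lower in a fit that includes these 4 libraries, 12 were lower there, and this count is a description only. At an unadjusted p under 0.05 by edgeR, in either direction, stood 14 of the 33 in all libraries, beside 1855 of all 15102 genes. With a term for detected genes, which itself separates the groups, the count was 0, beside 490 of all genes. In that fit 26 of the 33 were lower, with a median of -0.73, beside -0.26 over all genes. Gapdh was -0.73, Pgam1 -0.49, Slc16a1 -0.92, Pdhb -0.09 and Pdk1 0.44. Gpi1 (-1.31), Pfkl (-1.35) and Pdk2 (-1.77) were lower there than in the main fit. The count of genes lower with no overlap was 13 without cKO1, 5 without cKO2 and 15 without WT1, where 24.5%, 14.1% and 15% of all genes were. The granulosa marker sum was lowest in the cKO libraries with WT1 and WT2, and endothelial markers were highest in the cKO libraries and WT1. The share of mitochondrial genome reads separated cKO from WT but not these WT libraries, with 3.26% and 3.40% in WT1 and WT2 and 1.42% to 3.65% in WT3 to WT6. The part of these in the differences was not tested.

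Isoenzyme shares within a family were compared by TPM. Eno1 made up 58.7% and 68.1% of enolase TPM in cKO, 58.3% and 79.0% in WT1 and WT2, and from 96.1% to 98.4% in WT3 to WT6. Eno3 took most of the rest, with 41.3% and 29.4% in cKO and 40.6%, 20.99%, 3.89%, 1.65%, 3.48% and 2.46% in WT1 to WT6. Both cKO libraries and WT1 and WT2 thus shared a larger part of muscle enolase transcript, and these 4 libraries also stood highest with CPM divided by annotated exon length, where Eno3 took 50.4% and 61.1% in cKO and from 2.80% to 55.5% in WT. Markers of striated muscle summed to 4.57 and 42.3 CPM in cKO and from 3.01 to 25.3 CPM in WT, with Tnni2 at 0 reads in every library (7 of 8 markers had a read). By exon length cKO2 and WT1 had both the largest Eno3 shares and the largest muscle marker sums, while by TPM cKO1 had the largest share, and the part of muscle RNA was not tested.

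Ldhb exceeded Ldha per length in all 8 libraries, with 75.1% and 52.9% of lactate dehydrogenase TPM in cKO and from 60.6% to 91.6% in WT (median 67.9%), so both genes were lower in cKO without a separation of their shares. Pfkl made up 65.6% and 55.5% of phosphofructokinase TPM in cKO and from 41.0% to 58.8% in WT. With CPM by exon length the difference of Pfkl between group means shrank from 14.6 to 4.07 percentage points. Hk2 made up 73.5% and 56.9% of hexokinase TPM in cKO and from 43.7% to 86.7% in WT, but 86.0% and 84.4% in cKO and from 60.1% to 89.6% in WT with CPM by exon length. The direction of the Hk2 difference therefore depends on the length used. Aldoa was at least 98.1% of aldolase TPM in every library.

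**Figure D4:**
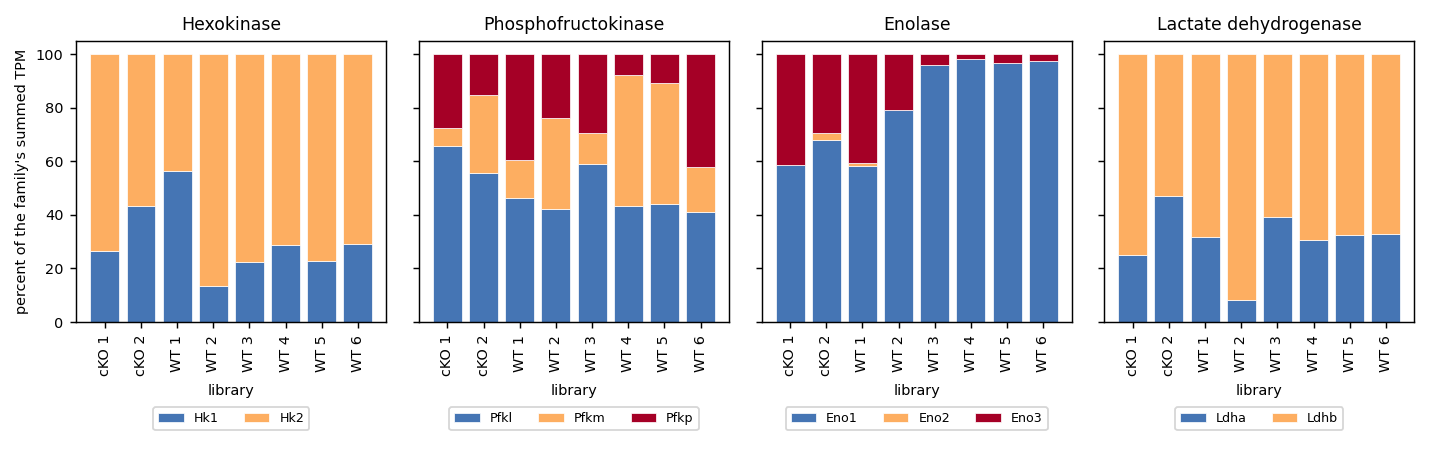
Share of each isoenzyme gene in the summed TPM of its family, in percent, for each of the 8 libraries. Eno3 takes from 20.99% to 41.3% of enolase in the 2 cKO libraries and WT1 and WT2 and at most 3.89% in WT3 to WT6, and Ldhb is above Ldha in every library.

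A list of 60 other genes of glucose metabolism, covering further transporters, the pentose phosphate route, glycogen, gluconeogenesis and mitochondrial pyruvate entry, had 47 tested members. Of these 35 were lower and 12 higher in cKO, the median log2 fold change being -0.51, and edgeR called 0, with 7 lower and 1 higher at an unadjusted p under 0.05, beside 8.89% and 3.40% of all genes. Of the 27 with an adjusted p from DESeq2, 2 were called lower, Mpc2 and Taldo1, beside 3.08% of all genes. Mpc2, a subunit of the carrier that brings pyruvate into mitochondria, measured 20.3 and 5.46 CPM in the cKO pair and ranged over 23.1 to 117 CPM across WT, with no overlap, a log2 fold change of -2.41 ± 0.69 (SE), with adjusted p = 0.369 by edgeR and 0.0254 by DESeq2. Taldo1, the transaldolase of the pentose phosphate route, measured 95.4 and 19.1 CPM in the cKO pair and ranged over 75.8 to 414 CPM across WT (log2 fold change -2.20 ± 0.75, SE). Bsg, which encodes the basigin chaperone of MCT1, measured 168 and 77.9 CPM in the cKO pair and ranged over 107 to 952 CPM across WT (log2 fold change -2.08 ± 0.77, SE). Bpgm, which makes 2,3-bisphosphoglycerate, measured 11.2 and 1.37 CPM in the cKO pair and ranged over 15.4 to 113 CPM across WT (log2 fold change -2.52 ± 0.98, SE). Ugp2, which makes the UDP-glucose for glycogen, measured 10.7 and 2.73 CPM in the cKO pair and ranged over 10.7 to 47.3 CPM across WT (log2 fold change -1.87 ± 0.78, SE). Pygl, the liver glycogen phosphorylase that releases glucose units from glycogen, was the 1 gene higher at this level, with 14.7 and 42.3 CPM in cKO and from 4.15 to 13.1 CPM in WT (log2 fold change 1.84 ± 0.67, SE). The groups did not overlap in 4 genes that were lower, Mpc2, Bpgm, Ugp2 (by a margin of 0.036 CPM) and Pdp1, and in 1 that was higher, Pygl, beside 6.41% and 6.02% of all genes. Pdp1, a pyruvate dehydrogenase phosphatase named after its values were seen to complete this count, measured 0 and 2.73 CPM in the cKO pair, from 2 reads, and at least 2.84 CPM in WT.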

How the data were processed

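Each library has 1 table, in which the authors deposited estimated counts, TPM and lengths. HISAT2, Salmon and mm10 are named, per the submitters' processing notes, without versions or roles. Smart-seq2 amplification with Tn5 libraries, per the labels' protocols, marks no strand and has no molecular identifiers. The estimated counts the authors deposited were rounded to whole numbers. Rows with a transcript identifier only (1548 of 36635, from 0.435% to 0.739% of reads) were left out, and 34130 of the 35087 named rows matched GENCODE M21 on GRCm38, the assembly of mm10, from which coordinates and exon lengths were taken. The deposited lengths were not used as gene lengths, for the reason given among the other observations.

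Genes kept by filterByExpr (minimum count 10, minimum total 15) numbered 15102. Groups, taken from the titles, were compared with edgeR 4.0.16 in R 4.3.3 (glmQLFit, glmQLFTest, group as the only term, TMM scaling, Benjamini-Hochberg adjustment over all genes, threshold 0.05). CPM use TMM-scaled library sizes. Fold changes are positive where cKO was higher, and each SE was derived from the F statistic. DESeq2 1.42.0 and limma 3.58.1 were run as alternatives. The fit was tested on simulated data. Chi-square per degree of freedom was at least 13.0 in all 28 comparisons of 2 libraries, so no library was another one sequenced again. The value measures read sampling only, so it cannot tell whether libraries share an animal or RNA. A read value was taken as divided with other rows where it was over 0.001 from a whole number, and 17 of the 36 genes had whole values in every library.

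The genes, lists and alternatives were chosen with earlier results of these data known. Level is given for every member. Fold changes are printed for Hif1a, for members with an unadjusted p under 0.05 or groups that do not overlap, and for the member of each step with the highest mean TPM over all 8 libraries (for transporters Slc2a8, by its cKO values, so Slc2a1, the highest in WT, is given too), and for up to 6 other genes of glucose metabolism with the smallest p. Alternatives were other scalings, filters and tools, limma on deposited TPM as log2(TPM + 1), an offset for length, a block for replicate number, a term for detected genes (at least 5 reads), a fit without mitochondrial genome genes, the libraries numbered 1 and 2, and leaving out each library.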

Additional observations from a re-analysis of the deposited data

Results flagged for a closer look

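In 3 of the 33 tested genes, 1 of the 6 WT libraries lay far from the other 5, with a gap to the nearest library above Dixon's 95% critical value. Chance flags about 1 in 20 groups. Slc2a3 had 14.3 CPM in WT replicate 1, where the next value was 3.85 CPM. Pfkl had 231 CPM in WT replicate 3, where the next was 124 CPM. Slc16a3 had 32.0 CPM in WT replicate 3, where the next was 10.2 CPM.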

How the results depend on the processing

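edgeR called 0 genes and 0 of the 33 tested members in all libraries and without any 1 library (from 0 to 0). Without a filter it called 478 of 25322 genes and 8 members. DESeq2 called 269 of 7757 genes and 8 members, and limma on log2(TPM + 1) called 5 of 15102 genes and 0 members. limma-voom called 0 genes, and put 14 members at an unadjusted p under 0.05, beside 2486 of 15102 genes. With the replicate block edgeR called 1 gene and 0 members, with a member median of -0.22, and Pgk1 turned to 0.56. The replicate number, which only numbers 1 and 2 share between groups, did not pair the libraries: the correlations of deviations from the group means were -0.28 for number 1 and -0.16 for number 2. Among the libraries numbered 1 and 2 the member median was -0.14 and Pgk1 was 0.55. The member median lay between -1.23 (without cKO2) and -0.62 (without WT6) without any 1 library, beside -0.28 and 0.02 over all genes in those fits. Pgk1 was the 1 of the 13 lower genes to turn under any alternative. The count of members lower with no overlap lay between 3 and 15 without any 1 library. With detected genes as a covariate Hif1a was -0.32, and Hk2 turned to -0.15 and Pfkfb4 to -0.78, and Pfkfb4 lay between -0.24 and 0.57 without any 1 library. Pfkl was 0.0032 with limma on log2(TPM + 1). The Hk2 share difference, -6.03 percentage points, was 12.1 by exon length and lay between -14.4 and 2.30 without any 1 library, and that of Ldhb, -6.76, lay between -17.9 and 4.38. The causes were not tested. The planned offset by the deposited effective length was not run, and the length implied by reads per TPM, added after seeing the data, was used in its place. Depth limits mainly cKO replicate 2, where a level under 4.10 CPM after TMM scaling is within the limit of 3 reads.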

Other observations

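The deposited effective lengths are not those behind the deposited TPM for genes with several transcripts. With each library scaled so that the median of genes with 1 transcript is 1, the length implied by reads per TPM was from 10.2 to 11.9 times the deposited effective length for Gapdh, which has 13 annotated transcripts, and from 9.47 to 14.0 times for Ldha, which has 15. For Slc16a1, with 1 transcript, the ratio was 1. For Hk1, with 20 annotated transcripts, it ran from 1 in cKO replicate 1 to 14.8 in WT replicate 1.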
